A study of Homo sapiens with 2 samples.

Results

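Transcripts of 10 genes that beta-catenin activates in intestinal cells were examined in HCT116-DKO cells and in their parental colon cancer line, HCT116-WT. The genes were AXIN2, LGR5, ASCL2, NKD1, RNF43, ZNRF3, BAMBI, SP5, TCF7 and MYC. They were chosen for their known link to beta-catenin, but with earlier results of these data known. A probe set was assigned to a gene only when that gene was the single symbol it carried in the platform annotation. By this rule 9 of the 10 genes had probe sets, 118 in all, among 261273 probe sets of 1 gene in the whole data. ZNRF3 was matched by no probe set and is not analysed here.

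HCT116-DKO cells have both DNMT1 and DNMT3b disrupted (genotype DNMT1-/- DNMT3b -/-) and were represented by the single line DKO1, and HCT116-WT cells have both genes intact. DNMT1 copies DNA methylation onto new strands and DNMT3B places new methylation. Both cultures grew untreated in McCoy's 5A medium with serum, and total RNA was hybridized to Affymetrix Human Exon arrays. There was 1 array per group, so no value below carries a replicate error or a p-value, and a difference between lines cannot be told apart from a difference between 2 cultures or 2 arrays. In such bulk RNA, fewer cells of a type and less RNA per cell cannot be told apart.

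In the Wnt pathway, beta-catenin is marked for destruction by a complex built on APC and AXIN1 until a Wnt signal or a mutation stops this. It then enters the nucleus, binds TCF/LEF factors at their DNA motif and switches on targets, several of which feed back to damp the signal. HCT116 cells carry a stabilizing mutation of CTNNB1, the beta-catenin gene, so the pathway is active in them without added Wnt. In the normal gut some of these targets, such as LGR5, mark the stem cells at the base of the crypts.

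Signals are on the log2 scale, and differences are always HCT116-DKO minus HCT116-WT. A gene level is the median polish over its probe sets, and the SD beside it is the spread of the difference between probe sets of that gene, not between cultures. Background was the 95th percentile of olfactory receptor genes, 7.30 in HCT116-DKO and 7.08 in HCT116-WT. A gene counted as changed when it met all of these demands: a minimum of 3 probe sets, a difference of 1 or more, a share of 75% or more of its probe sets on that side, and a level above background in the brighter array. The words rose and fell are kept for such genes. The targeted genes both fell. DNMT1 was at 9.36 in HCT116-DKO and 10.63 in HCT116-WT, and DNMT3B was at 6.91 in HCT116-DKO, below background, and 8.32 in HCT116-WT. The median signal was 8.37 in HCT116-DKO and 8.28 in HCT116-WT. Of 10 measured epithelial markers 8 lay above background in both lines, against 66.4% of all genes. KRT8 was at 13.33 in HCT116-DKO and 13.02 in HCT116-WT. Of 8 blood cell markers 7 were above background in neither line, against 4457 of all 16241 genes. Of 12 fibroblast and mesenchymal markers 2 rose, against 2.66% of all genes, and 5 were above background in neither line. Their part in the results was not tested.

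Promoter sequence is shown for 2 of the targets because they differ in the letters that TCF/LEF factors and DNMT enzymes read. SP5 carries the TCF/LEF core motif repeatedly. BAMBI carries none in this window but is dense in CpG, the dinucleotide that DNMT enzymes methylate. Both sequences are the 250 bases before the annotated start in RefSeq (GRCh38.p14), 5′ to 3′ on the plus strand, at chr2:170715087-170715336 for SP5 and chr10:28677271-28677520 for BAMBI. Capitals mark CTTTGA or its reverse complement TCAAAG in SP5 and each CG in BAMBI.
SP5: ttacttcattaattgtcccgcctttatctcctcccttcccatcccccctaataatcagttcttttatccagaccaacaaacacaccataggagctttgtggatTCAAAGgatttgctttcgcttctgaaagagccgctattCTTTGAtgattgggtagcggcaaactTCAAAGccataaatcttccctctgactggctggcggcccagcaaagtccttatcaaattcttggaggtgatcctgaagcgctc
BAMBI: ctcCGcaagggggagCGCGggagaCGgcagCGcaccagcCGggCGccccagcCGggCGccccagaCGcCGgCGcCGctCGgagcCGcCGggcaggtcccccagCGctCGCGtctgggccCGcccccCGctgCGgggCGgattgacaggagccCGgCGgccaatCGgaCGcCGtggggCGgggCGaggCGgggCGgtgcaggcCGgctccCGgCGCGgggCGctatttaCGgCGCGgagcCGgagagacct

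The SP5 window held 3 copies of the motif, at -147 to -142, -109 to -104 and -83 to -78 from the start. At least 1 copy on either strand was found in 11.2% of 35116 RefSeq windows of this length, and 3 or more in 0.0655%. The BAMBI window had 0 copies and 41 CpG, more than 98.3% of windows. SP5 had 6 CpG, against a median of 11. Windows of RNF43 and TCF7 were also listed, 2 for each gene, so only 4 of the 10 targets had a listed window. The RNF43 and TCF7 windows held 0 copies of the motif. They had 4 and 0 CpG for RNF43, and 22 (more than 72% of windows) and 1 for TCF7. A motif match describes the letters only, and no methylation was measured on these arrays. Whether motif or CpG content goes with the differences between the lines was not tested.

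By the rule of a single symbol, BAMBI rose among the 9 measured targets, 0 fell and 8 did not count as changed. This count depends on MYC. When 3 probe sets that name it together with its synonym MRTL were added, MYC counted as fallen. Counts and shares of the targets below leave these 3 out. Over all 16241 genes with at least 3 probe sets, 2.66% rose and 0.536% fell by the same rule, 3.2% in all. Levels were above background in both lines for 7 of the 9 targets, against 66.4% of all genes. Among genes above background in both lines 1.58% rose and 0.538% fell, beside 1 and 0 of these 7 targets. Positive differences were seen in 6 of the 9 targets, and in 53.7% of all genes. The 6 include LGR5, which was above background in neither line. The median difference was 0.22 for the targets and 0.02 for all genes, and after quantile normalization of the 2 arrays it was 0.06 for the targets and -0.07 for all genes. Among single probe sets, 80 of 118 (67.8%) were higher in HCT116-DKO, against 52.6% of all probe sets of 1 gene. LGR5 supplied 15 of these 80, although only 2 of its 21 probe sets were above background in either line. A difference of at least 1 was reached by 13 of the 118 (11%, against 6.32%), 5 in BAMBI, 5 in NKD1 and 3 in AXIN2. A difference of -1 or less was seen in 3 of the 118 (2.54%, against 2.69%), 1 each in AXIN2, NKD1 and MYC. Probe sets of a gene share its transcripts and are not independent.

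**Figure D1:**
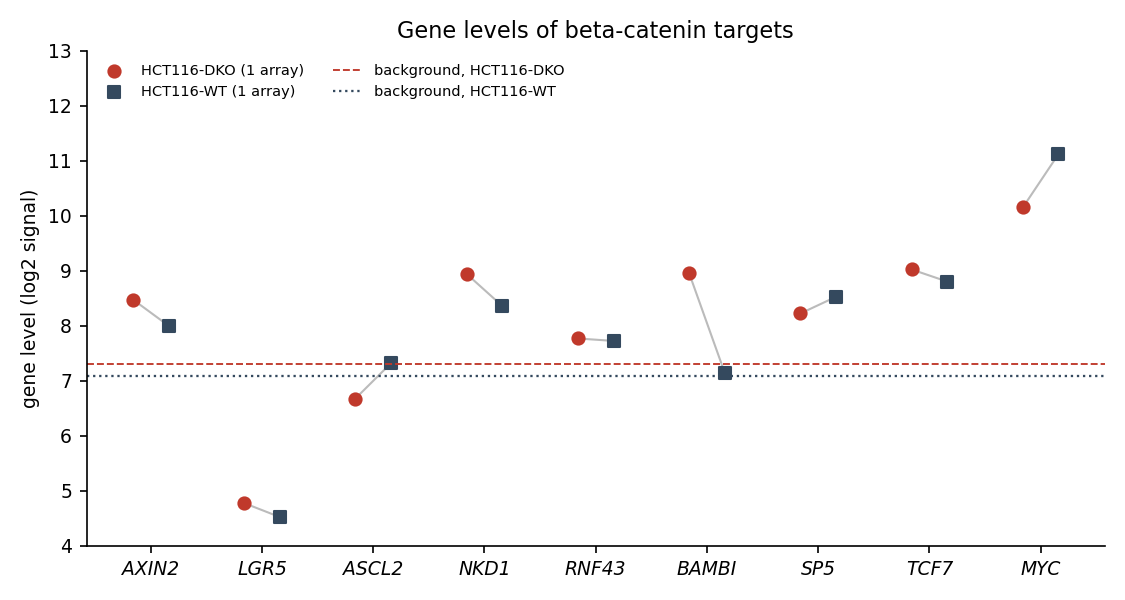
Gene levels (log2 signal, y axis) of the 9 measured beta-catenin targets (x axis) in HCT116-DKO (red circles) and HCT116-WT (dark squares), 1 array each, with the background of each array as a broken line. Levels are compared within a gene only, and BAMBI shows the widest gap, with 8.95 in HCT116-DKO and 7.14 in HCT116-WT.

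BAMBI, a membrane protein shaped like a TGF-beta receptor but without a kinase, which dampens BMP and TGF-beta signals, rose 3.51-fold in HCT116-DKO. Its level was 8.95 in HCT116-DKO and 7.14 in HCT116-WT, a difference of 1.81 (SD over probe sets 0.87). The HCT116-WT level was close to the background of 7.08, while that of HCT116-DKO stood clear of it. All 7 of its 7 probe sets were higher in HCT116-DKO. In the order of their IDs they read 7.97, 7.34, 8.79, 8.56, 10.29, 10.89 and 9.73 in HCT116-DKO, against 7.63, 7.13, 7.30, 6.60, 7.90, 8.71 and 7.91 in HCT116-WT. The first pair of probe sets hardly differed, by 0.34 and 0.21, and the other 5 differed by 1.49 to 2.39. Which exon each probe set reads was not used here. With the median of probe sets taken per array in place of median polish, the difference was 1.16, which is still past the threshold.

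MYC, the transcription factor that drives growth and ribosome production, had lower signals in HCT116-DKO, and whether it counted as changed depended on which probe sets were assigned to it. By the rule of a single symbol it had 3 probe sets, with a level of 10.15 in HCT116-DKO and 11.12 in HCT116-WT, a difference of -0.97 (SD 0.95). The first pair read 11.87 and 10.04 in HCT116-DKO, against 12.84 and 11.24 in HCT116-WT. The third lay far below background, at 2.60 in HCT116-DKO and 2.05 in HCT116-WT, and was the only one that was not lower in HCT116-DKO. The difference missed the threshold of 1 and the share of probe sets missed 75%.

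A further 3 probe sets name MYC together with MRTL, which RefSeq lists as a synonym of MYC. They read 12.58, 11.34 and 11.68 in HCT116-DKO, against 13.73, 12.89 and 12.79 in HCT116-WT. All 3 were thus lower in HCT116-DKO, by 1.15, 1.55 and 1.11. Over the 6 probe sets together MYC was at 11.61 in HCT116-DKO and 12.74 in HCT116-WT, a difference of -1.13 (SD 0.74), and then it counted as fallen, 2.19-fold. The 5 probe sets above background were lower in HCT116-DKO by 0.97 to 1.55.

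**Figure D2:**
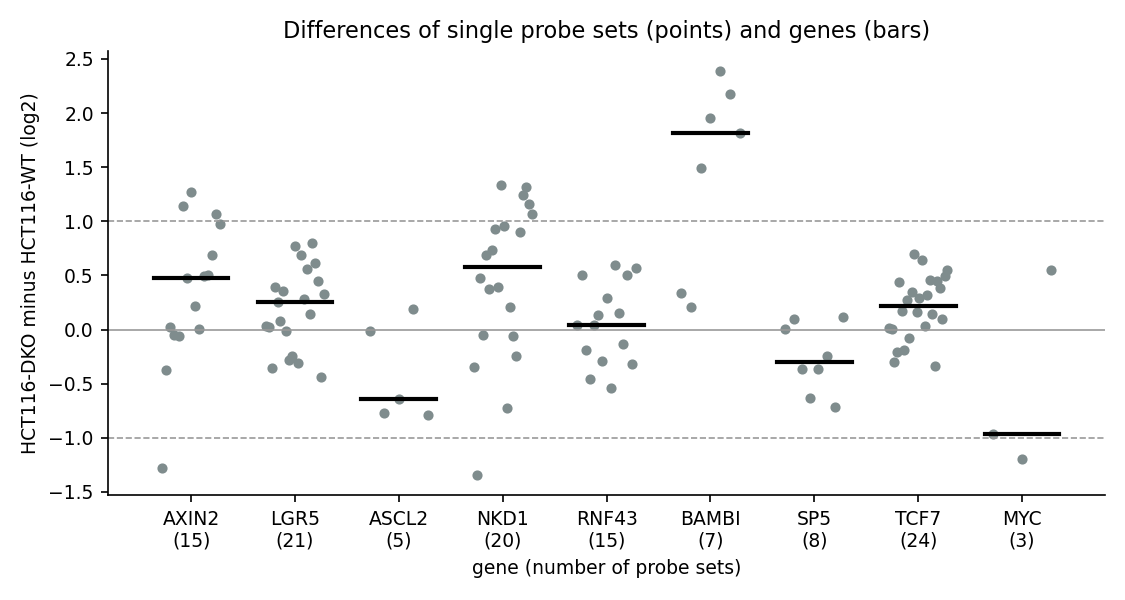
Difference of each probe set, HCT116-DKO minus HCT116-WT (log2, y axis), for the 9 measured targets with their number of probe sets on the x axis. Points are single probe sets in the order of their IDs, black bars are gene differences and broken lines mark 1 and -1. The bar of BAMBI lies at 1.81, and those of the other 8 genes lie between -0.97 and 0.58.

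The feedback inhibitors AXIN2 and NKD1 were higher in HCT116-DKO over part of their probe sets, and neither counted as changed. AXIN2, a scaffold of the destruction complex that beta-catenin itself induces, was at 8.48 in HCT116-DKO and 8.0 in HCT116-WT, a difference of 0.48 (SD 0.67). Its probe sets ran from 1.97 through a median of 8.72 to 9.96 in HCT116-DKO and from 2.34 through 7.76 to 10.01 in HCT116-WT, so the ranges overlap. Of its 15 probe sets 11 were higher in HCT116-DKO, which is 73.3% and just short of the share the rule demands. The first 5 in the order of IDs differed by -1.27 to 0.02, and 2 of these were far below background. The other 10 were all at or above equality, from 0.00 to 1.27 with a median of 0.60. Those at places 6, 8 and 14 read 8.81, 8.82 and 8.83 in HCT116-DKO, against 7.67, 7.55 and 7.76 in HCT116-WT.

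NKD1, which binds dishevelled proteins and blocks the signal upstream of beta-catenin, was at 8.94 in HCT116-DKO and 8.36 in HCT116-WT, a difference of 0.58 (SD 0.73). Its probe sets ran from 5.65 through a median of 8.93 to 11.71 in HCT116-DKO and from 7.0 through 8.14 to 11.77 in HCT116-WT. Of 20 probe sets 14 were higher in HCT116-DKO (70.0%). The last 5 differed by 0.90 to 1.32, with 8.31 to 9.43 in HCT116-DKO and 7.15 to 8.11 in HCT116-WT. Those at places 5 to 11 were higher as well, by 0.37 to 1.34. At places 12 to 15, in contrast, the differences ran between -0.73 and 0.21, and at the first 4 between -1.34 and 0.48. The higher signals thus came in separate runs of probe sets, and these runs, like those given for the other targets, were chosen after their values were seen.

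**Figure D3:**
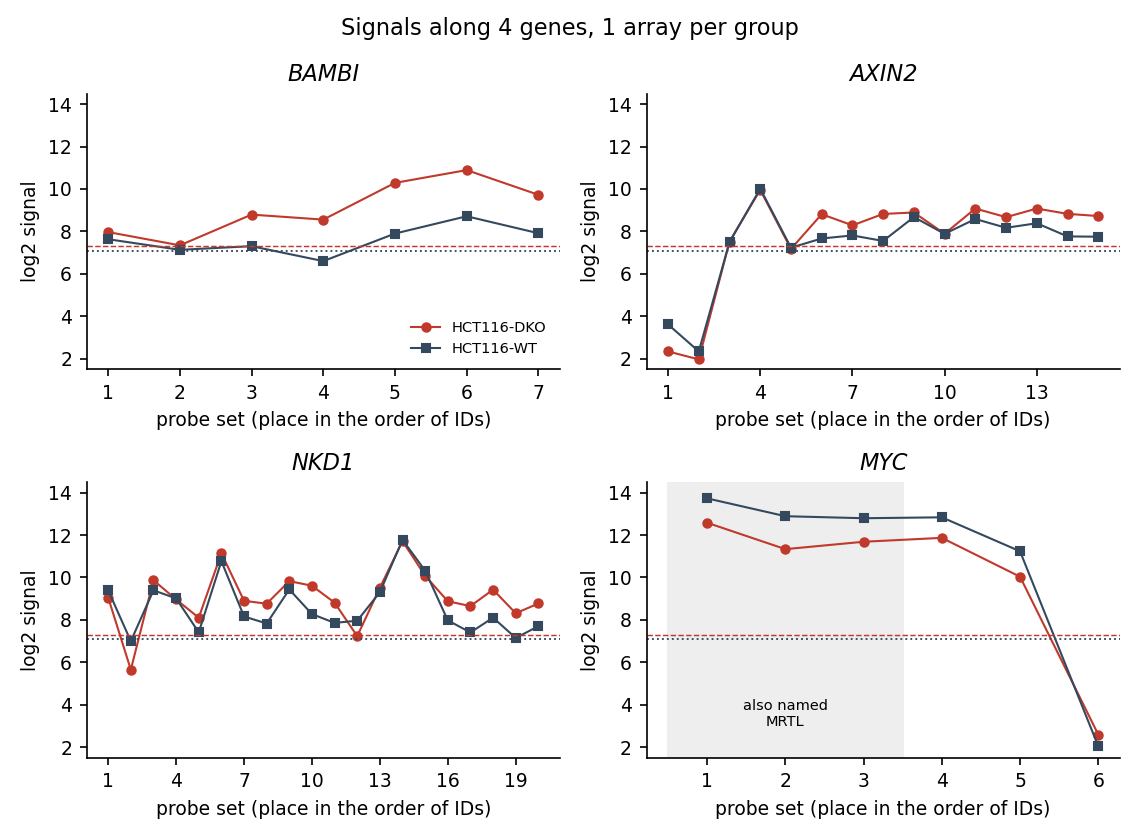
Signal of each probe set (log2, y axis) against its place in the order of IDs (x axis) for BAMBI, AXIN2, NKD1 and MYC in HCT116-DKO (red circles) and HCT116-WT (dark squares), with the background of each array as a broken line. The grey field in the MYC panel holds the 3 probe sets also named MRTL. BAMBI differs by 0.34 and 0.21 at its first places and by up to 2.39 later, and MYC is lower in HCT116-DKO at all 5 places above background.

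RNF43, a ubiquitin ligase that removes Frizzled receptors from the cell surface, had near-equal levels of 7.77 in HCT116-DKO and 7.72 in HCT116-WT. Its probe sets ran from 5.88 through a median of 7.77 to 10.10 in HCT116-DKO and from 5.31 through 7.59 to 10.39 in HCT116-WT. The difference was 0.04 (SD 0.38), with 9 of 15 probe sets higher in HCT116-DKO, and none of the 15 differed by 1 or more in either direction. Quantile normalization and median centring of the arrays turned this small difference to -0.06 and -0.05.

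The transcription factors TCF7 and SP5 differed little, in opposite directions. TCF7, itself a TCF/LEF factor, was at 9.02 in HCT116-DKO and 8.80 in HCT116-WT, a difference of 0.22 (SD 0.29). Its probe sets ran from 3.66 through a median of 9.04 to 12.75 in HCT116-DKO and from 3.51 through 8.86 to 12.95 in HCT116-WT. Of its 24 probe sets 19 were higher in HCT116-DKO (79.2%). A share of at least 75% on this side was reached by 27% of all genes. The first 10 probe sets had a median difference of 0.01 and the other 14 a median of 0.35, with 13 of these 14 higher. SP5, a zinc finger factor of the SP family that competes with other SP proteins at their sites, was at 8.22 in HCT116-DKO and 8.53 in HCT116-WT, a difference of -0.30 (SD 0.32). Its 8 probe sets read 9.86, 7.43, 8.78, 8.10, 8.15, 9.03, 7.53 and 6.86 in HCT116-DKO, against 9.85, 7.34, 9.14, 8.73, 8.51, 9.27, 8.24 and 6.74 in HCT116-WT. Of these 5 were lower in HCT116-DKO and the ranges overlap. These are the transcripts whose promoter holds the 3 motifs printed above.

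ASCL2, a helix-loop-helix factor needed for intestinal stem cells, was at 6.68 in HCT116-DKO, below background, and at 7.32 in HCT116-WT, just above it. The difference was -0.64 (SD 0.46). Its 5 probe sets read 6.58, 6.61, 8.31, 7.70 and 6.13 in HCT116-DKO, against 6.59, 7.38, 8.96, 7.51 and 6.92 in HCT116-WT. Of these 4 were lower in HCT116-DKO (80.0%), 1 of them by only 0.01. At least 75% of probe sets were lower in 20.3% of all genes. ASCL2 would count as fallen at a threshold of 0.58, as would 1.8% of all genes. With levels below background set to background its difference was -0.02, and with even-numbered probe sets alone it was -0.29. A fold is not given, since the level in HCT116-DKO was not above background. ASCL2 lies in an imprinted region of chromosome 11, and of 11 measured genes listed around it 0 changed, against 3.2% of all genes. H19, KCNQ1OT1 and SLC22A18 were listed too but had no probe set by the rule of a single symbol. CD81 was at 12.42 in HCT116-DKO and 12.13 in HCT116-WT, and PHLDA2 was at 10.19 in HCT116-DKO and 10.36 in HCT116-WT.

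LGR5, the R-spondin receptor that marks crypt stem cells, was above background in neither line, at 4.77 in HCT116-DKO and 4.52 in HCT116-WT. Its probe sets ran from 2.26 through a median of 4.79 to 8.21 in HCT116-DKO and from 2.44 through 4.46 to 8.18 in HCT116-WT. Of its 21 probe sets 1 was above background in both lines, at 8.21 in HCT116-DKO and 8.18 in HCT116-WT. Another was above background in HCT116-WT alone, at 7.20 in HCT116-DKO and 7.18 in HCT116-WT. Both had near-equal signals in the 2 lines. Levels below background have no order, so the difference of 0.25 (SD 0.38) is no measure of the transcript.

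Genes of the destruction complex, the Wnt receptors and the R-spondin group held no changed member. Over all genes 3.2% changed, so counts of 0 in lists of this size are near that share. Beta-catenin itself, CTNNB1, was at 12.31 in HCT116-DKO and 12.16 in HCT116-WT, a difference of 0.15 (SD 0.18). Of 18 genes of its destruction complex, CTNNB1 included, 0 changed and their median difference was 0.05. The scaffold APC was at 8.03 in HCT116-DKO and 8.12 in HCT116-WT, and AXIN1 was at 8.72 in HCT116-DKO and 8.76 in HCT116-WT. Of 18 Wnt receptors, coreceptors and dishevelled proteins 0 changed, with FZD6 at 10.99 in HCT116-DKO and 11.24 in HCT116-WT and RYK at 10.48 in HCT116-DKO and 10.73 in HCT116-WT. FZD3, singled out after its values were seen, was at 9.09 in HCT116-DKO and 9.61 in HCT116-WT, with 19 of 19 probe sets lower. Of 7 measured genes of R-spondins, LGR receptors and deubiquitinases of Frizzled 0 changed. LGR4, the relative of LGR5 that was above background in both lines, was at 8.69 in HCT116-DKO and 9.08 in HCT116-WT.

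Of 21 genes for Wnt ligands and their export, 2 fell and 0 rose, against 0.536% and 2.66% of all genes. WNT16, a secreted ligand, fell to 7.81 in HCT116-DKO, against 9.41 in HCT116-WT, a difference of -1.60 (SD 1.14) that was seen in 10 of 11 probe sets. WLS, the carrier that brings Wnt proteins to the cell surface, fell to 10.40 in HCT116-DKO, against 11.52 in HCT116-WT, 2.16-fold, in 21 of 21 probe sets. The median over the list was -0.04.

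Among 24 TCF/LEF factors and cofactors TLE1 rose and 0 fell, against 2.66% and 0.536% of all genes. TLE1, a Groucho corepressor that TCF/LEF factors bind when beta-catenin is absent, was at 9.38 in HCT116-DKO and 7.82 in HCT116-WT, 2.94-fold higher, in 24 of 24 probe sets. TCF7L2, the main TCF factor of the gut, was at 10.06 in HCT116-DKO and 10.38 in HCT116-WT (-0.32, SD 0.33). LEF1 was above background in neither line, at 6.10 in HCT116-DKO and 5.80 in HCT116-WT, although 6 of its 17 probe sets were higher by at least 1 in HCT116-DKO. The median of the list was 0.03.

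Of 27 further measured Wnt targets 0 changed, against 3.2% of all genes. Their median difference was 0.04, against 0.02 over all genes. The cyclin gene CCND1 was at 11.97 in HCT116-DKO and 11.10 in HCT116-WT, a difference of 0.88 with 11 of 12 probe sets higher. The secreted antagonist DKK1 was at 12.41 in HCT116-DKO and 12.96 in HCT116-WT, with 7 of 7 probe sets lower. After their values were seen, 2 more were singled out as close to the threshold. The secreted Wnt deacylase gene NOTUM was at 8.95 in HCT116-DKO and 8.0 in HCT116-WT (0.95, SD 0.71), and VEGFA, which encodes a vessel growth factor, was at 8.14 in HCT116-DKO and 9.12 in HCT116-WT (-0.98, SD 0.36), with 14 of 14 probe sets lower. Of the 27 targets 15 had a positive difference (55.6%), near the 53.7% of all genes.

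**Figure D4:**
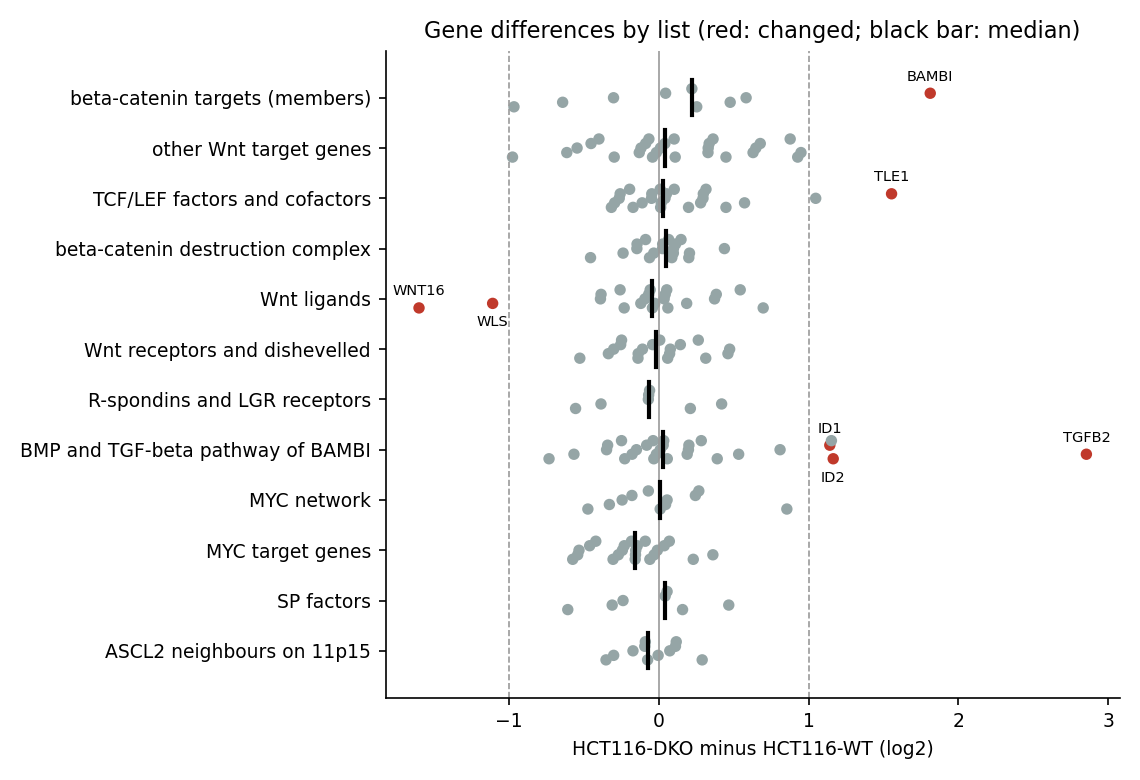
Difference of each gene, HCT116-DKO minus HCT116-WT (log2, x axis), for the beta-catenin targets and 11 related lists (y axis). Grey points did not count as changed, red points did, black bars are list medians and broken lines mark 1 and -1. The 2 grey points beyond 1 reached the size but not every other demand. Changed genes are BAMBI, TLE1, TGFB2, ID1 and ID2 on the right and WNT16 and WLS on the left, and list medians lie between -0.16 and 0.22.

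In the BMP and TGF-beta pathway on which BAMBI acts, 3 of 27 measured genes rose and 0 fell, against 2.66% and 0.536% of all genes. Their median difference was 0.03. The ligand gene TGFB2 was at 8.71 in HCT116-DKO and 5.86 in HCT116-WT, below background there, so it rose at least 3.10-fold. Of its 11 probe sets 9 were higher. ID1 and ID2 encode inhibitors of helix-loop-helix factors and are known BMP targets. ID1 was at 11.19 in HCT116-DKO and 10.05 in HCT116-WT, 2.21-fold higher in 7 of 7 probe sets. ID2 was at 7.69 in HCT116-DKO and 6.52 in HCT116-WT, below background there, and rose at least 1.52-fold. ID3 and the ligand gene BMP4, singled out after their values were seen, did not count as changed. ID3 differed by 0.53, with 6 of 6 probe sets higher, and BMP4 by -0.73, with 10 of 10 lower. Of the 27 genes 15 had a positive difference (55.6%, against 53.7% of all genes).

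Genes that MYC activates were mostly lower in HCT116-DKO by small amounts. Of 22 measured MYC target genes 18 had a negative difference (81.8%, against 46.2% of all genes). Of the 22, 0 changed, against 3.2% of all genes, and the median was -0.16, against 0.02 over all genes. The 2 with the highest levels, ENO1 and LDHA of glycolysis, were near equal, ENO1 at 13.78 in HCT116-DKO and 13.79 in HCT116-WT and LDHA at 13.35 in HCT116-DKO and 13.41 in HCT116-WT. A further 4 genes were singled out after their values were seen, as examples on either side. The nucleolar protein gene NCL was at 10.81 in HCT116-DKO and 11.39 in HCT116-WT, with 25 of 25 probe sets lower, and ODC1, of polyamine synthesis, was at 12.14 in HCT116-DKO and 12.67 in HCT116-WT, with 13 of 13 lower. On the other side SRM, also of polyamine synthesis, was at 11.60 in HCT116-DKO and 11.37 in HCT116-WT, with 10 of 10 higher. SHMT1, of one-carbon metabolism, was at 10.25 in HCT116-DKO and 9.89 in HCT116-WT, with 15 of 15 higher. Of the 22 genes 5 were lower in every probe set (22.7%, against 5.21% of all genes) and 2 were higher in every probe set (9.09%, against 5.46%). However, 21 of the 22 were above background in both lines, against 66.4% of all genes. In lists wholly above background, the share lower in every probe set was 16.7% for housekeeping genes, 16.7% for Wnt receptors and dishevelled proteins and 0% for the destruction complex. A link to the MYC level was not tested. Of 11 measured partners and relatives of MYC 0 changed, against 3.2% of all genes. MLX was at 10.30 in HCT116-DKO and 10.37 in HCT116-WT. Of 7 measured relatives of SP5 in the SP family 0 changed, beside the same 3.2%. SP1 was at 10.78 in HCT116-DKO and 10.73 in HCT116-WT.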

How the data were processed

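The values the authors deposited are log2 signals of exon-level probe sets, from 1 array of HCT116-DKO and 1 of HCT116-WT. The submitters' processing notes name RMA. The methods of the study give Affymetrix Expression Console, and Partek Genomic Suite where exon intensities are discussed, and do not say which of them made this table. Arrays have no read depth, so only their number bears on precision.

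Probe sets took their gene from the platform annotation, and outdated symbols were replaced through RefSeq (GRCh38.p14). Of 287329 probe sets, 9155 with several symbols and 16901 with none were left out. Median polish gave levels for 16909 genes, and 286 olfactory receptor genes set the background. Where the dimmer array was at background, the fold given is a lower bound, computed against that background. No test was run, since 1 array per group has no replicate error. The targets and lists were chosen with earlier results of these data known. All targets were named, and from each list the changed genes or the 1 or 2 with the highest levels, beside CTNNB1, APC, AXIN1, TCF7L2, LEF1, DNMT1 and DNMT3B. Any other gene was chosen after its values were seen. Python 3.11.15, NumPy 2.4.6 and pandas 2.3.3 were used.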

Additional observations from a re-analysis of the deposited data

How the results depend on the processing

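In the 10 alternatives that recomputed the differences, the direction of each measured target was kept except for RNF43, which was -0.0649 after quantile normalization and -0.046 after median centring. For LGR5 the kept direction says little. With levels below background set to background, its difference was only the gap between the 2 backgrounds. BAMBI counted as changed under these 10 alternatives and the other 4, which altered only the rule, with differences of 1.16 to 1.96. The number of changed targets, 1, became 2 when probe sets of several genes were kept where a target was among them, which brought in MYC at -1.13, and likewise when symbols were updated through RefSeq first, an alternative chosen after seeing the data. It was also 2 at a threshold of 0.58, through ASCL2. The median of the targets, 0.22, was 0.0585 after quantile normalization and 0.0437 with only probe sets above background. The 519 changed genes became 1212 at a threshold of 0.58 and 300 at a threshold of 1.5. Quantile normalization and median centring moved the median of all genes by -0.088 and -0.0906. MYC ranged from -1.20 to -0.21, AXIN2 from 0.34 to 0.96 and ASCL2 from -0.77 to -0.02. The -0.21 of MYC, with odd-numbered probe sets alone, took in its probe set far below background. Over the 5 MYC probe sets above background, those shared with MRTL included, the difference was -1.15 (SD 0.22). No paired analysis was possible because each group had 1 array. With 1 array per group, culture, labelling and array cannot be told apart from genotype, and LGR5 and the level of ASCL2 in HCT116-DKO were limited by background.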

Other observations

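Other genes of intestinal stem cells and of differentiated gut cells moved in single cases only. Of 17 measured genes listed for intestinal stem cells, 2 rose and 0 fell, against 2.66% and 0.536% of all genes. Their median difference was 0.08. PROM1, a membrane protein of stem and progenitor cells, was at 7.42 in HCT116-DKO and 4.96 in HCT116-WT, below background there, and rose at least 1.27-fold, in 30 of 31 probe sets. LRIG1, which restrains the EGF receptor, was at 8.74 in HCT116-DKO and 6.81 in HCT116-WT, and rose at least 3.16-fold, in 25 of 27 probe sets. Some members of this list are also Wnt targets. Of 19 measured differentiation genes, 12 were above background in neither line, against 4457 of all 16241 genes. Of the 19, 1 fell, against 0.536% of all genes. This was CA2, a carbonic anhydrase of colonocytes, at 8.75 in HCT116-DKO and 10.23 in HCT116-WT. Of 12 fibroblast and mesenchymal markers THY1 and FBN1 rose, against 2.66% of all genes. THY1 was at 7.64 in HCT116-DKO and 6.23 in HCT116-WT, and FBN1 at 7.30 in HCT116-DKO and 5.90 in HCT116-WT. Both were below background in HCT116-WT, so THY1 rose at least 1.48-fold and FBN1 at least 1.17-fold. The FBN1 level in HCT116-DKO, 7.3011, hardly exceeded the background of 7.2993. Of 7 endothelial markers and of 12 measured housekeeping genes 0 changed, against 3.2% of all genes.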
